A study of Homo sapiens with 402 samples.

Results

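The lead dose series comprises 16 RNA-seq libraries of MCF10A, a spontaneously immortalised, non-tumorigenic human mammary epithelial cell line with wild-type genotype, exposed for 48 h to lead at 0.025, 0.25, 2.5 or 25 µM, with 4 libraries at each dose. They were chosen by their treatment label from 402 libraries and were compared with the 15 water-treated, undosed control libraries of the same plate and plate barcode. The whole series exposed these cells to 21 chemicals at the same 4 doses. The plate of the lead libraries (93 libraries) also held arsenic, cadmium, copper and mercury, each at the 4 doses, and all 93 libraries entered the fit. Copper and mercury at 25 µM, with 4 libraries each, were used here for comparison. The labels call the libraries of a dose biological replicates without saying what separates them, so p-values measure only the spread between these libraries of 1 cell line, which may be technical. The chemical form of the lead, copper and mercury was not given in the sources used here.

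Lead(II) has no known function in mammalian cells, binds thiol groups of proteins and glutathione, and inhibits enzymes of heme synthesis, in which ALAS1 makes the first intermediate, ALAD the next and FECH inserts the iron. Cells answer electrophiles and thiol-binding metals largely through NRF2, a transcription factor that its partner KEAP1 holds at a low level until KEAP1 cysteines are modified. Released NRF2 binds antioxidant response elements and drives glutathione synthesis, thioredoxin recycling, NADPH supply, ferritin and quinone and aldehyde reduction, while metallothioneins, thiol-rich proteins that bind zinc and other metals, are driven by the zinc sensor MTF1.

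The labels number the lead libraries 1 to 4 and the controls 1 to 8 and 10 to 16. They were taken as a first number set (lead replicates 1 and 2, controls 1 to 8) and a second (lead replicates 3 and 4, controls 10 to 16). Expression differed between the sets. Over all 93 libraries of the plate, with the other metals' replicates split in the same way, 7666 of 24295 genes tested were called between them. Every comparison carried a term for the set, and values below are given in replicate order. Total counts were 12.2 to 21.6 M in the lead libraries, 12.6 to 23.9 M in controls 1 to 8 and 1.93 to 5.40 M in controls 10 to 16, of which 3 were under 3 M. Low counts in the second set are therefore less precise on the control side. Mitochondrial reads made up 7.75% to 10.8% of counts in lead libraries, 10.4% to 11.4% in controls 1 to 8 and 7.87% to 9.10% in controls 10 to 16. All 10 basal epithelial markers had counts in all 31 libraries. So did the luminal markers KRT8, KRT18, GATA3, FOXA1, MUC1 and EPCAM and, of the immune and endothelial list, CD14. The mesenchymal and fibroblast markers VIM, CDH2, FN1, ZEB1, ZEB2, TWIST1, SNAI2, DCN and ACTA2 had counts in all 31 as well. The luminal markers PGR, ELF5 and KIT, the fibroblast marker COL3A1 and the immune and endothelial markers CD3E, ITGAM and CDH5 had 0 counts throughout. KRT19, a luminal marker, had counts in 2 libraries.

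More genes were called at each higher dose, and more of them rose than fell at each dose with calls. With edgeR's quasi-likelihood test and Benjamini-Hochberg adjustment (a gene is called at adjusted p under 0.05), 0 genes were called at 0.025 µM. There 1736 had an unadjusted p under 0.05 and DESeq2 also called 0. Within the second set alone 140 were called at this dose, 135 of them higher. The lead libraries of that dose and set had 18.7 M counts, against 1.93 to 5.40 M in its controls. The part of this gap in depth was not tested. At 0.25 µM 83 genes were called (0.342% of genes tested), 62 higher and 21 lower. At 2.5 µM 343 were called (1.41%), 241 higher and 102 lower. At 25 µM 1081 were called (4.45%), 665 higher and 416 lower, and 276 of these had changed at least 2-fold, 182 higher and 94 lower. The excess of 2-fold rises was not seen in every fit. DESeq2 gave 96 higher and 137 lower, and lead and control libraries alone gave 115 and 125. The first set alone gave 71 and 119, and the second 169 and 38. A linear trend across the 4 doses, fitted without the controls as a log2 slope per 10-fold dose step, was called for 312 genes (1.28%), 174 rising and 138 falling. The 4 dose comparisons share the same 15 controls, and the trend and the comparison at 25 µM share lead libraries. The higher share moved with the fit. Of the calls at 25 µM it was 61.5%, against 52.5% with DESeq2-type size factors in edgeR (RLE scaling). It was 43.6% in DESeq2, which changes the test as well as the scaling. At 2.5 µM these shares were 70.3%, 60.1% and 46.4%, and at 0.25 µM 74.7%, 61.1% and, in DESeq2, 86 of 200 calls. The sets share no control libraries, and fitted separately at 25 µM they called 718 genes (42.5% higher) and 582 genes (78.7% higher), of which 199 were called in both, each in the same direction (27.7% and 34.2% of the respective calls). A difference between the sets in the effect at 25 µM was called for 4 genes (0.0165%). Without 1 lead replicate at all doses the calls numbered 25 to 35 at 0.25 µM, 143 to 186 at 2.5 µM and 570 to 870 at 25 µM (570 without replicate 1 and 661 without replicate 4), and 140 to 219 for the trend. Of all genes tested 0.255%, 0.992% and 2.74% were called higher at 0.25, 2.5 and 25 µM and 0.0864%, 0.42% and 1.71% lower. Counts of list members below are to be read beside these shares. The low-count filter ran over the whole plate, so the genes tested include some that passed only with libraries of other treatments. With lead and control libraries only, 16823 genes passed and 1421 were called at 25 µM, 788 higher and 633 lower, a larger share in each direction. The shares of all genes given below may therefore understate the background. That fit also changed the spread, and the part of the filter alone was not tested. In bulk RNA fewer cells of a kind and less RNA per cell cannot be told apart, which applies to every fall below.

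Among genes with an average of at least 4 on the log2 CPM scale, the largest rises were in SLC7A11, AKR1C1, HMOX1, OSGIN1, CYP4F11, HSPA6, TRIM16L, FTL, AKR1C2, PTGR1, CLCF1 and IL1B, with log2 fold changes from 2.67 to 1.47. Of these 12, SLC7A11, AKR1C1, HMOX1, OSGIN1, FTL and AKR1C2 are on the list of NRF2 targets, HSPA6 is a heat shock gene, and CLCF1 and IL1B are cytokines. The call of HSPA6 was lost without any 1 of the 4 lead replicates (1.77 to 2.01) and with the replicate number as a block (1.85), as it was in DESeq2 (1.74). The largest falls were in TNNI2, SAA2, SUSD2, PDZK1IP1, S100A8, TGM1, SYT8, SCNN1B, GGT5, S100A9, CLCA2 and SCNN1G, from -2.32 to -1.55. They include sodium channel subunits, a chloride channel regulator, acute-phase and calprotectin genes and a cornification enzyme.

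**Figure D1:**
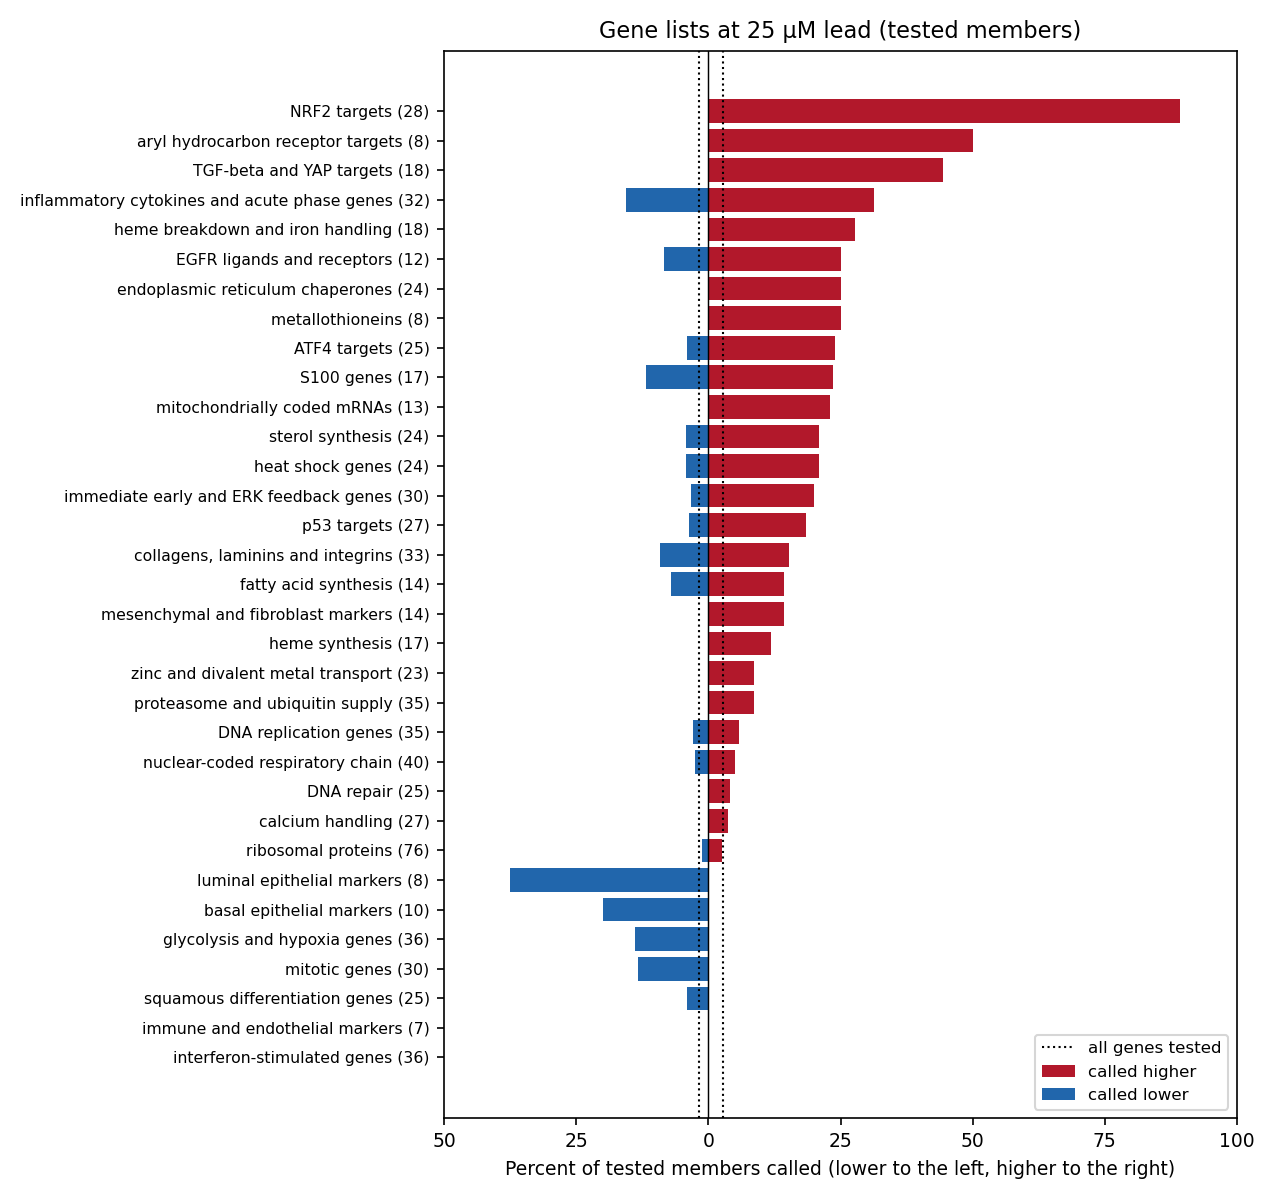
Percent of the tested members of each gene list called higher (red, to the right) or lower (blue, to the left) at 25 µM lead, with the number of tested members in brackets and dotted lines at the shares of all genes tested (2.74% higher, 1.71% lower). NRF2 targets stand at the top with 25 of 28 called higher, and interferon-stimulated genes and immune and endothelial markers have no call.

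NRF2 targets rose from 0.25 µM up. Of 28 tested members 0 were called at 0.025 µM, 12 rose at 0.25 µM (0.255% of all genes were called higher there), 20 at 2.5 µM (0.992%) and 25 at 25 µM (2.74%), and none was called lower at any dose. The median log2 fold change of the members was -0.03, 0.42, 0.67 and 0.99 at the 4 doses, against 0.01, 0.00, -0.01 and -0.02 over all genes tested. The trend was called rising for 24 of the 28 (0.716% of all genes). The 3 members not called at 25 µM were TKT (0.11, adjusted p 0.40), a transketolase of the pentose phosphate pathway, GSR (0.33, 0.11), glutathione reductase, and ABCC3 (0.13, 0.40), an organic anion exporter. The members called at 25 µM numbered 24 to 26 under every alternative setting tried, with 24 within each number set on its own, of which 23 were called in both.

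**Figure D2:**
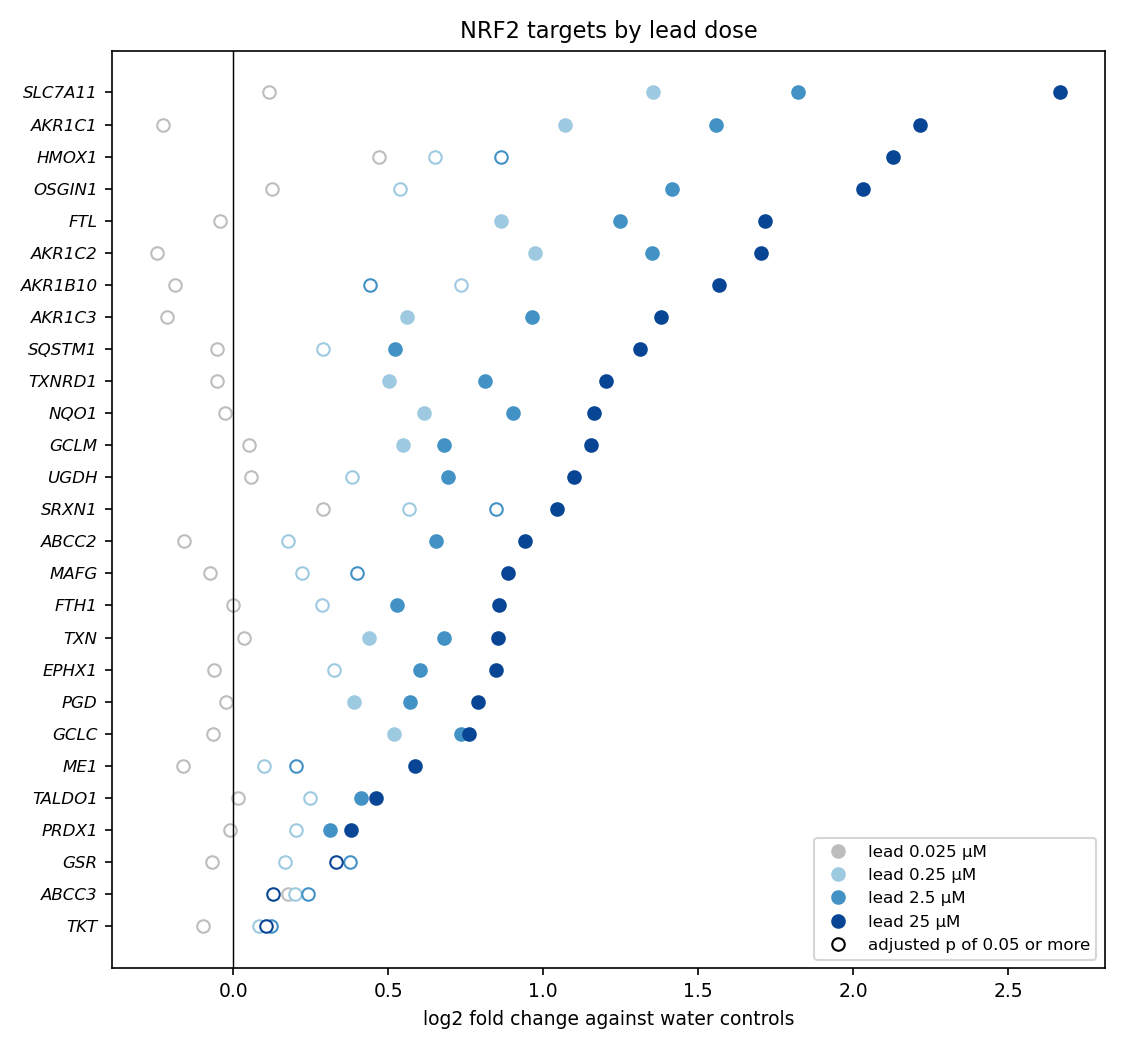
Log2 fold change of 27 of the 28 NRF2 targets tested, against the water controls at each lead dose (grey to dark blue), with filled points for adjusted p under 0.05. At 0.025 µM no point is filled, and for most members the points at 0.25, 2.5 and 25 µM lie in dose order, up to 2.67 for SLC7A11.

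Promoters of the members were read for the antioxidant response element, because this motif is where NRF2 binds. RefSeq (GRCh38.p14) gave the 250 bases before the start for 20 of the 28 members, and the letters TGACNNNGC, on either strand, each letter N standing for any base, were present in 4 of them (GCLM, TXNRD1, PGD and ME1), against 11.03% of 27305 promoters. The promoter stretches of TXNRD1 and ME1 are shown with the motif in capitals, 5′ to 3′ on the gene's strand, as the genes whose data follow; that of ME1 was shortened to leave out annotated exon bases.
TXNRD1, chr12:104215529-104215778, plus strand: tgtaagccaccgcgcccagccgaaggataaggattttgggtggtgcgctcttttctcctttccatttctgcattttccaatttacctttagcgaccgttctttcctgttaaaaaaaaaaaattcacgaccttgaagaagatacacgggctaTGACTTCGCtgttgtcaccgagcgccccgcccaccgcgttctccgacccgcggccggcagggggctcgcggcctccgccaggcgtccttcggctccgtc
ME1, chr6:83431072-83431301, minus strand: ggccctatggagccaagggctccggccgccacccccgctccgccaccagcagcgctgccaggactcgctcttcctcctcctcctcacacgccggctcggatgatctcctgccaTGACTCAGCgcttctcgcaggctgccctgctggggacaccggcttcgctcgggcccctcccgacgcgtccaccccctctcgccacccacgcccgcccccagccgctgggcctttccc
A match describes the letters in this window and is not evidence of binding.

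SLC7A11, GCLM and GCLC, genes of cystine import and glutathione synthesis, rose from 0.25 µM. SLC7A11 (chr4:138164097-138242349, minus strand), the light chain of the cystine/glutamate exchanger that supplies cysteine for glutathione, had 25.8, 24.3, 37.6 and 42.5 CPM (counts scaled to library size, the unit of all levels below) at 0.025 µM, 54.8, 45.4, 113 and 106 at 0.25 µM, 91.1, 83.1, 116 and 129 at 2.5 µM and 214, 157, 175 and 162 at 25 µM. Controls 1 to 8 had 13.3 to 25.4 (median 21.9) CPM and controls 10 to 16 had 26.1 to 61.9 (median 37.9). Control ranges are given in that order throughout. All 4 libraries at 25 µM lay above all 15 controls, and those at 0.025 µM overlapped the controls of their own set. The log2 fold change was 0.11, 1.35, 1.82 and 2.67 (SE 0.17, adjusted p 8.3e-26) at the 4 doses, which is 6.35-fold at 25 µM. GCLM and GCLC are the modifier and catalytic subunits of the enzyme that limits glutathione synthesis. GCLM had 188, 196, 223 and 199 CPM at 25 µM against 64.5 to 93.6 (median 84.95) and 58.5 to 123 (median 96.5) in the controls, without overlap, and its log2 fold change was 0.55 at 0.25 µM (SE 0.11, adjusted p 0.0028), 0.68 at 2.5 µM and 1.15 (SE 0.10, adjusted p 9.4e-16) at 25 µM. GCLC had 325, 317, 307 and 246 CPM against 143 to 198 (median 157) and 159.8 to 224 (median 196), and its log2 fold change was 0.52 at 0.25 µM (SE 0.10, adjusted p 0.0031), 0.74 at 2.5 µM and 0.76 (SE 0.10, adjusted p 1.8e-08) at 25 µM.

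Members for thioredoxin recycling, NADPH supply and quinone reduction also rose. TXNRD1, thioredoxin reductase, whose promoter is shown above, had 286, 290.4, 343 and 394 CPM at 0.25 µM and 485, 525, 572 and 530.3 at 25 µM against 182 to 233 (median 194) and 216 to 302 (median 261) in the controls. The 25 µM values were all above the controls, and the log2 fold changes were 0.50 (SE 0.10, adjusted p 0.0025) and 1.20 (SE 0.09, adjusted p 3.6e-19). PGD, which makes NADPH in the pentose phosphate pathway, rose at 25 µM by 0.79 on the log2 scale (SE 0.06, adjusted p 1.7e-20). ME1, which makes NADPH from malate and carries the second motif shown, had 130.1, 156, 153 and 154 CPM against 84.7 to 105 (median 95.9) and 89.2 to 126 (median 102), with no overlap, and was called only at 25 µM (0.59, SE 0.10, adjusted p 4.7e-06). NQO1 (chr16:69706996-69726951, minus strand), a quinone reductase, had 606, 633, 604 and 623 CPM at 0.025 µM, 903, 904, 1059.9 and 994 at 0.25 µM, 1064, 1181, 1189 and 1277 at 2.5 µM and 1355, 1371, 1428 and 1492 at 25 µM. Its controls had 570.00 to 625 (median 618) and 559 to 698 (median 662) CPM, so that every library from 0.25 µM up lay above all controls while those at 0.025 µM overlapped them. The log2 fold change was 0.62, 0.90 and 1.17 (SE 0.07, adjusted p 1.2e-27), with 1.17 in the first set and 1.16 in the second.

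**Figure D3:**
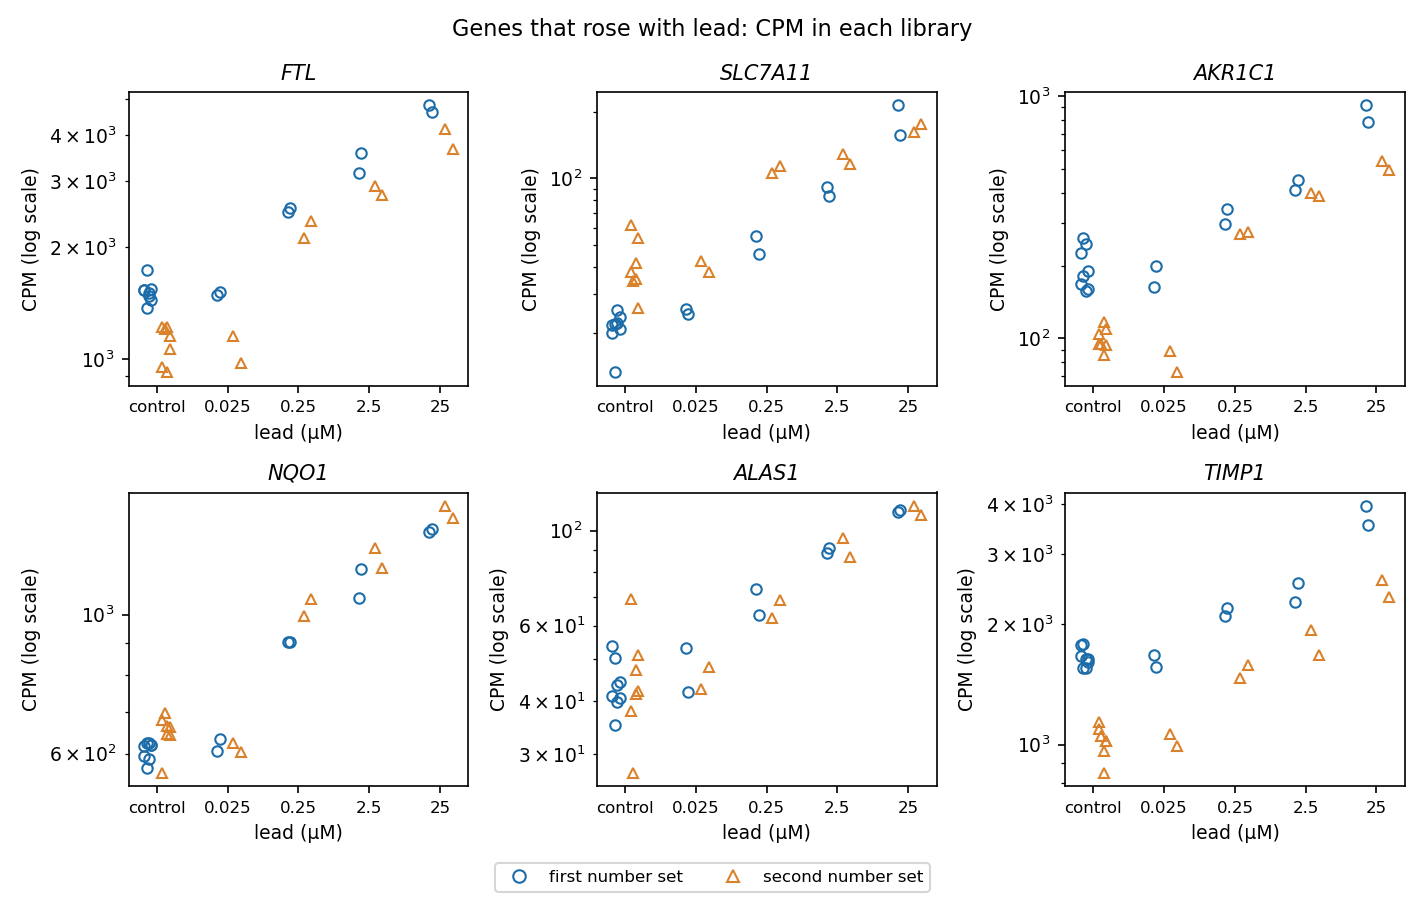
CPM on a log axis in each library for 6 genes that rose with lead, controls at the left and the 4 doses to the right, circles for the first number set and triangles for the second. For FTL, SLC7A11, AKR1C1, NQO1, ALAS1 and TIMP1 the 4 libraries at 25 µM lie above all controls of both sets.

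The aldo-keto reductases AKR1C1, AKR1C2 and AKR1C3, which reduce ketosteroids and lipid aldehydes, differed in baseline between the sets and rose in each. AKR1C1 had 296, 342, 275 and 271 CPM at 0.25 µM and 917, 780.4, 496 and 540.4 at 25 µM against 157 to 259 (median 186) in controls 1 to 8 and 85.4 to 117 (median 94.8) in controls 10 to 16. The second set sat lower at every dose, and the log2 fold change at 25 µM was 2.10 in the first set and 2.36 in the second (2.22, SE 0.13, adjusted p 2.0e-26 with both). AKR1C2 rose by 1.70 (SE 0.11, adjusted p 8.4e-24) and AKR1C3 by 1.38 (SE 0.10, adjusted p 9.4e-23) on the log2 scale. The 3 genes are near-identical in sequence, so reads can be split between them and their single values are uncertain. TRIM16L, PTGR1, a reductase of reactive aldehydes and eicosanoids, and OSGIN1 reached log2 fold changes of 1.77, 1.55 and 2.03. SQSTM1, the autophagy receptor p62, which binds KEAP1, had 492, 504, 537 and 513 CPM at 2.5 µM and 938, 882, 827 and 887 at 25 µM against 340.01 to 373 (median 362) and 301 to 396 (median 353), a log2 fold change of 0.52 and then 1.31 (SE 0.08, adjusted p 1.7e-26).

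Among genes of heme and iron, the first enzyme of heme synthesis and ferritin rose while 15 of the 17 heme synthesis genes did not pass the test. ALAS1 (chr3:52198086-52214327, plus strand) had 53.2, 42.1, 47.9 and 42.6 CPM at 0.025 µM, 72.9, 63.5, 68.8 and 62.6 at 0.25 µM, 88.7, 90.9, 86.6 and 96.2 at 2.5 µM and 110.3, 112, 109 and 114 at 25 µM. Its controls had 35.2 to 53.7 (median 42.2) and 27.1 to 69.2 (median 42.3) CPM, all below the 25 µM libraries, which lay within a narrow range. The log2 fold change was 0.07, 0.60, 1.03 and 1.33 (SE 0.11, adjusted p 3.7e-17), with 1.35 and 1.30 in the sets. Of 17 heme synthesis genes tested 1, 1 and 2 rose at 0.25, 2.5 and 25 µM, the second being TMEM14C, a mitochondrial heme-precursor carrier (0.28, SE 0.07, adjusted p 0.0079), and none fell. The call of TMEM14C was lost without lead replicate 2 (0.26) or 4 (0.24). ALAD, the enzyme of this pathway best known as a target of lead, had 21.7, 23.4, 25.7 and 19.3 CPM at 25 µM against 24.6 to 34.3 (median 28.7) and 19.4 to 35.8 (median 24.4). FECH had 86.9, 79.4, 86.9 and 101 against 67.4 to 90.5 (median 72.99) and 57.97 to 99.4 (median 73.03). Their log2 fold changes did not pass the test: -0.29 (SE 0.15, adjusted p 0.34) and 0.21 (SE 0.11, adjusted p 0.36). The median of the 17 was 0.03 at 25 µM.

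Of 18 genes of heme breakdown and iron handling 5 rose at 25 µM and none fell: HMOX1, FTL, FTH1, SLC48A1 and BLVRB, some of which are also NRF2 targets. FTL (chr19:48965301-48966878, plus strand), the ferritin light chain, had the smallest p of any gene at 25 µM among those named here. It had 1486, 1512, 975 and 1152 CPM at 0.025 µM, 2486, 2552, 2344 and 2113 at 0.25 µM, 3161, 3585, 2754 and 2921 at 2.5 µM and 4797, 4601, 3663 and 4137 at 25 µM, against 1369 to 1733 (median 1521) and 922 to 1221 (median 1152) in the controls. From 0.25 µM up every library lay above the controls of both sets, with log2 fold changes of 0.86, 1.25 and 1.72 (SE 0.08, adjusted p 3.7e-34); reads of FTL pseudogenes may be included. FTH1, the heavy chain, had 10387, 11272, 6777 and 8353 CPM at 25 µM against 6298 to 7762 (median 7098) and 3194 to 3819.7 (median 3636), above the controls of each set though not across sets, and rose by 0.86 (SE 0.08, adjusted p 1.4e-14). HMOX1 (chr22:35380361-35394214, plus strand), heme oxygenase 1, which opens the heme ring and frees iron, had 6.94, 8.90, 5.22 and 8.20 CPM at 2.5 µM and 24.8, 15.3, 16.3 and 13.4 at 25 µM against 1.84 to 4.73 (median 3.48) and 1.41 to 12.4 (median 5.08). It was called only at 25 µM (2.13, SE 0.30, adjusted p 5.7e-08). BLVRB, a biliverdin reductase, and SLC48A1, a heme transporter, rose by 0.74 and 0.88. TFRC, the transferrin receptor, had 218, 296, 346 and 362 CPM against 174 to 277 (median 242) and 279 to 417 (median 335) and did not pass the test (0.11, SE 0.11, adjusted p 0.68).

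Of 8 tested metallothioneins 1, 2 and 2 rose at 0.25, 2.5 and 25 µM, the median log2 fold change at 25 µM was 0.07, and the called members were MT2A and MT1E. MT2A had 11716, 12734, 7038 and 6564 CPM at 0.25 µM, 12273, 13429, 7422 and 8574 at 2.5 µM and 14066, 12994, 6117 and 8541 at 25 µM against 7833 to 10554 (median 9298) and 3028 to 4883 (median 4121), with the sets far apart in level. Each 25 µM library lay above the controls of its own set, and the log2 fold change was 0.54, 0.70 and 0.67 (SE 0.09, adjusted p 6.4e-08). MT1E had 1525, 1558, 559 and 899.8 CPM against 1103 to 1343 (median 1252) and 343 to 604 (median 412) (0.49, SE 0.12, adjusted p 0.0034), a call that was lost without lead replicate 4 (0.37). MT1X had 86.5, 95.4, 24.9 and 26.9 CPM at 25 µM, overlapping its controls, and did not pass the test at any dose (0.10, SE 0.17, adjusted p 0.89). Its controls had 74.5 to 103 (median 96.1) and 10.7 to 30.7 (median 18.6) CPM. Metallothionein genes are alike in sequence, so their single values are uncertain. The MTF1 motif, read as TGCACNC or TGCGCNC on either strand, occurred 3 or more times in the 250 bases before the start of all 4 metallothioneins that had a RefSeq promoter, against 1.56% of all promoters. The stretch of MT1X, shortened to leave out exon bases, is shown with its 4 matches in capitals as the promoter of a member that was not called.
MT1X, chr16:56682220-56682423, plus strand: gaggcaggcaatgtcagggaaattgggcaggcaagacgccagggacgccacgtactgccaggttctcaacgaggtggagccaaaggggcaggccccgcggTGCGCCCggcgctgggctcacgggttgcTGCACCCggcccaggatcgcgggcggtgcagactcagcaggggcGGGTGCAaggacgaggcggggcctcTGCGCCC
Of 23 genes of zinc and divalent metal transport, which include the zinc sensor MTF1, 2 rose at 25 µM (2.74% of all genes). SLC30A1, a zinc exporter, had 54.2, 40.6, 52.1 and 55.1 CPM against 24.2 to 35.6 (median 31.4) and 27.7 to 50.4 (median 45.9), above the controls of each set (0.51, SE 0.13, adjusted p 0.0074). The other was SLC39A7, a zinc carrier of the endoplasmic reticulum (0.35, SE 0.10, adjusted p 0.022). Without lead replicate 1 the call of SLC30A1 was lost (0.40), and that of SLC39A7 was lost without any 1 of the 4 lead replicates (0.29 to 0.38).

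Of 24 heat shock genes 5 rose and 1 fell at 25 µM (1.71% of all genes were called lower), with a median of 0.16, and of 24 endoplasmic reticulum chaperones and stress genes 6 rose and none fell. HSPA1A, an inducible HSP70, had 39.5, 30.8, 40.2 and 42.4 CPM against 15.5 to 20.6 (median 17.6) and 11.6 to 48.8 (median 23.98), above the first set's controls and within those of the second (0.85, SE 0.21, adjusted p 0.0047). Its reads cannot be told from those of HSPA1B. Its call was lost without lead replicate 1 (0.76), and the call of HSPB8 (1.27) was lost without any 1 of the 4 replicates (1.08 to 1.41) and with the replicate number as a block (1.27). HSPD1, the mitochondrial chaperonin, had 1045, 1050.4, 1093 and 1087 CPM, below all controls, and fell by 0.28 (SE 0.05, adjusted p 0.00022) on the log2 scale. For HSPD1 the controls had 1251 to 1327 (median 1288) and 1238 to 1371 (median 1299.6) CPM. In the endoplasmic reticulum group SDF2L1, MANF and DNAJB9 rose by 0.58, 0.48 and 0.67. XBP1, a transcription factor of this response, had 176, 179, 149.98 and 167 CPM, all above the controls. For XBP1 the controls had 109 to 138 (median 124) and 102 to 138 (median 111) CPM. HSPA5, the main chaperone of this compartment, did not pass the test (0.19, SE 0.09, adjusted p 0.31).

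Of 25 ATF4 targets 6 rose and 1 fell at 25 µM (2.74% and 1.71% of all genes), with a median of 0.28. SLC7A11, described above, is also on this list. Its partner SLC3A2 had 901, 888, 1104 and 1159 CPM, above the controls of each set. For SLC3A2 the controls had 546 to 695 (median 646) and 758 to 945 (median 881) CPM, and the log2 fold change was 0.44 (SE 0.08, adjusted p 1.7e-05). ATF5, TRIB3, CEBPB and STC2 rose by 0.69, 0.28, 0.50 and 0.45. The call was lost for ATF5 without lead replicate 1 (0.67) or 4 (0.63) and for CEBPB without 3 (0.42) or 4 (0.44). DDIT3, the death-associated factor CHOP, had 0.41 (adjusted p 0.42). DDIT4, an inhibitor of mTORC1, fell by 0.52 (SE 0.11, adjusted p 0.00028). Of 27 p53 targets 5 rose and 1 fell, beside the same shares of all genes, with a median of -0.02. CDKN1A, the cell-cycle inhibitor p21, had 293, 319, 257 and 244 CPM, all above the controls, while GDF15, a stress-released cytokine, rose by 1.08 (SE 0.20, adjusted p 5.5e-05). For CDKN1A the controls had 169.9 to 202 (median 191) and 165 to 229.8 (median 202) CPM, and the log2 fold change was 0.53 (SE 0.10, adjusted p 6.4e-05). BAX and PHLDA3 rose by 0.38 and 0.45, and the call of PLK2 (-0.58) was lost without lead replicate 1 (-0.38), 2 (-0.50) or 4 (-0.62).

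Some sterol synthesis genes were called lower at 0.25 µM and some higher at 25 µM, where most of the list was not called. At 0.25 µM 5 of 24 members fell (0.0864% of all genes were called lower there), among them HMGCS1 (-0.60), FDPS (-0.30), FDFT1 (-0.34) and DHCR7 (-0.39), all enzymes of the mevalonate and cholesterol pathway. At 2.5 µM 1 of the 24 was called, lower (0.42% of all genes were called lower). At 25 µM 5 rose, HMGCS1, IDI1, FDPS, MSMO1 and EBP, and 1 fell. The median of the 24 was -0.21, -0.31, -0.17 and 0.09 at the 4 doses, and 6 had a rising trend. HMGCS1, which makes HMG-CoA, had 109, 113, 126 and 129.8 CPM at 0.25 µM and 231, 269, 224 and 213 at 25 µM against 129.7 to 162 (median 153) and 198 to 227 (median 219.6). At 0.25 µM all 4 libraries were below every control of their set. At 25 µM those of the first set were above theirs while those of the second overlapped (0.40, SE 0.12, adjusted p 0.042; slope 0.29 per 10-fold step, adjusted p 4.6e-05). MSMO1 had 475, 537, 414 and 455 CPM at 25 µM, above all controls, and rose by 0.50 (SE 0.11, adjusted p 0.00097). For MSMO1 the controls had 272 to 348 (median 319.7) and 304 to 394 (median 346) CPM. Within the second set no member was called higher at 25 µM, and HMGCS1, IDI1, EBP and MSMO1 had 0.0088, 0.12, 0.084 and 0.30 there. The calls of HMGCS1 (0.36 and 0.27), IDI1 (0.32 and 0.26) and EBP (0.25 and 0.23) were lost without lead replicate 1 or 2, those of IDI1 and EBP also without 4 (0.33 and 0.30). With the replicate number as a block the call of HMGCS1 was lost at the same size (0.40). Among 14 fatty acid genes FADS1, a desaturase, and ME1 rose and ACSL1, an acyl-CoA synthetase, fell by 0.77 (SE 0.11, adjusted p 3.5e-07).

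Among genes of EGF receptor signalling, ligands and some immediate early genes rose and the receptor inhibitor ERRFI1 fell. EREG, HBEGF and EPGN, ligands of the receptor that MCF10A cultures depend on, rose among 12 members at 25 µM. EREG had 68.5, 62.6, 36.2 and 37.6 CPM against 21.3 to 29.01 (median 25.5) and 15.1 to 34.8 (median 22.1), without overlap (1.06, SE 0.20, adjusted p 5.8e-05). EPGN had 108, 97.1, 81.6 and 114 against 37.4 to 54.3 (median 51.3) and 48.5 to 89.4 (median 60.8), overlapping in the second set (0.82, SE 0.15, adjusted p 2.5e-05). HBEGF rose by 1.21 (SE 0.33, adjusted p 0.013), a call lost without lead replicate 2 (1.13) or 4 (1.03) and within the first set (0.97). Within the second set EREG (0.66) and EPGN (0.54) were not called. ERRFI1 (chr1:8004404-8026308, minus strand), which binds and inhibits the receptor, had 119.8, 125, 64.7 and 61.9 CPM at 0.025 µM, 98.9, 83.03, 59.5 and 56.5 at 0.25 µM, 79.5, 92.1, 41.6 and 49.6 at 2.5 µM and 50.1, 49.4, 43.4 and 38.9 at 25 µM against 111 to 161 (median 132) and 62.8 to 99.7 (median 80.7). All 4 libraries at 25 µM lay below all controls, and the log2 fold change was -0.53, -0.74 and -1.19 (SE 0.13, adjusted p 2.5e-12). Of 30 immediate early and ERK feedback genes 6 rose at 25 µM (FOSL1, EGR1, IER3, DUSP4, SPRY4 and PHLDA1, from 0.63 to 0.81) and FOS fell. Within the second set SPRY4 (0.49) and FOS (-0.096) were not called. IER3 had 138, 137, 111 and 193 CPM, above all controls. For IER3 the controls had 72.8 to 90.6 (median 82.6) and 55.8 to 109.6 (median 93.6) CPM, and the log2 fold change was 0.75 (SE 0.12, adjusted p 1.1e-06). FOS had 15.9, 25.98, 9.51 and 13.9 CPM against 40.2 to 65.6 (median 55.1) and 6.87 to 17.4 (median 11.97), below the first set's controls only. Its fall, -0.88 (SE 0.23, adjusted p 0.0086), was lost without lead replicate 1 (-0.70).

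Of 32 cytokine and acute-phase genes 10 rose and 5 fell at 25 µM (2.74% and 1.71% of all genes). IL1A and IL1B, the interleukin-1 ligands, had 99.3, 86.6, 61.4 and 81.4 and 181, 156, 56.2 and 121 CPM at 25 µM. Controls of IL1A had 26.04 to 41.9 (median 33.9) and 15.8 to 55.01 (median 33.9) CPM, below all lead libraries at this dose (1.32, SE 0.17, adjusted p 5.4e-09). Those of IL1B had 38.5 to 70.97 (median 49.4) and 18.03 to 64.2 (median 30.5), with replicate 3 inside the range of its own set (1.47, SE 0.25, adjusted p 8.7e-06). CSF3, which drives granulocyte output, had 784, 759, 658 and 621 CPM at 0.25 µM and 1285, 1178, 428 and 722 at 25 µM against 386 to 549 (median 474) and 112 to 459 (median 251). CCL20, a chemokine, had 195, 189, 56.8 and 65.01 against 52.9 to 89.2 (median 63.8) and 12.6 to 32.1 (median 26.8). Both were called from 0.25 µM, with 0.96 and 0.93, and reached 1.28 (SE 0.20, adjusted p 2.5e-06) and 1.42 (SE 0.21, adjusted p 1.9e-07). The neutrophil chemokines CXCL3, CXCL5 and CXCL8 and the prostaglandin enzyme PTGS2 rose by 1.11, 1.41, 1.20 and 1.69. IL24 had 9.63, 6.59, 2.23 and 9.24 CPM against 0 to 1.20 (median 0.341) and 0 to 9.63 (median 0), above the first set's controls only, and was called. IL33, also called, had 2.33, 1.58, 0.319 and 0 CPM against 0 to 0.386 (median 0) and 0 in all of controls 10 to 16, a level of few reads. Its call was lost without lead replicate 3 (3.41) and with the replicate number as a block (3.70). The 5 members that fell were SAA2, SAA1, C3, BIRC3 and IL6. SAA2, a serum amyloid A of the acute phase, had 186, 237, 18.4 and 23.5 CPM at 0.25 µM and 58.7, 60.2, 3.45 and 4.70 at 25 µM against 230.3 to 314 (median 270.2) and 6.48 to 30.7 (median 20.9). These values were below the controls of each set (-2.21, SE 0.34, adjusted p 8.7e-07) at 25 µM, and the control level differed widely between the sets. SAA1, which is near-identical to it, fell by 1.22 (SE 0.23, adjusted p 8.1e-05). Complement C3 had 454, 469.8, 219.9 and 269.99 CPM against 716 to 818 (median 788) and 308 to 485 (median 359) and fell by 0.72 (SE 0.11, adjusted p 5.8e-07). BIRC3, an NF-kB target, fell by 0.57 (SE 0.14, adjusted p 0.0047). IL6 had 0, 0.0634, 0.0531 and 0 CPM against 0.158 to 3.93 (median 2.33) in controls 1 to 8 and 0 in all of controls 10 to 16, so its lower call rests on the first set. It was lost without lead replicate 1 (-4.23), 2 (-5.10) or 4 (-4.59). Of 36 interferon-stimulated genes 0 were called at any dose with edgeR, with log2 fold changes of -0.73 to 2.02 at 25 µM and a median of 0.08.

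Calprotectin, the dimer of S100A8 and S100A9, fell while other S100 genes rose. S100A8 had 801, 874, 40.7 and 29.6 CPM at 0.025 µM, 599, 707, 23.01 and 18.9 at 0.25 µM, 489.96, 569.7, 11.8 and 23.2 at 2.5 µM and 189, 253, 3.45 and 6.55 at 25 µM. Controls 1 to 8 had 726 to 1078 (median 799) CPM and controls 10 to 16 had 8.19 to 34.5 (median 13.6), so the control level differed widely between the sets. Within each set the 25 µM libraries lay below all controls, and the log2 fold change was -1.96 and -1.92 (-1.99, SE 0.34, adjusted p 1.0e-05 with both). S100A9 fell by 1.61 (SE 0.31, adjusted p 0.00010). Without the set term both calls were lost (-2.05 and -1.93), and within the second set that of S100A9 was lost too (-1.01). S100A2, a p63-linked calcium-binding protein, had 2389, 2014, 2314 and 3174 CPM at 25 µM, above all controls. For S100A2 the controls had 1109 to 1682 (median 1452) and 1431 to 1819 (median 1598) CPM, and the log2 fold change was 0.72 (SE 0.10, adjusted p 8.8e-09). S100A6, S100A11 and S100A16 rose by 0.34, 0.50 and 0.23. Of 25 squamous differentiation genes 1 was called at 2.5 and 25 µM (1.41% and 4.45% of all genes). This was TGM1, which cross-links the cornified envelope. It had 13.8, 12.6, 19.3 and 10.6 CPM at 2.5 µM and 7.61, 11.6, 11.3 and 11.8 at 25 µM against 25.6 to 40.6 (median 35.8) and 14.2 to 59.2 (median 34.2), below all controls at 25 µM, and fell by 1.66 (SE 0.23, adjusted p 4.1e-08).

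SCNN1B and SCNN1G, the beta and gamma subunits of the epithelial sodium channel, fell at 25 µM. SCNN1G had 167, 153, 135 and 109 CPM at 0.025 µM, 129, 151, 73.1 and 93.2 at 0.25 µM, 119, 102, 83.6 and 81.4 at 2.5 µM and 62.2, 69.9, 67.9 and 41.8 at 25 µM against 170.4 to 219 (median 199) and 124 to 200.5 (median 169.99). The 25 µM libraries were below all 15 controls, with log2 fold changes of -0.72, -0.90 and -1.55 (SE 0.18, adjusted p 4.9e-11), and SCNN1B fell by 1.65 (SE 0.27, adjusted p 3.1e-06). SYT8 (chr11:1828307-1837521, plus strand), a synaptotagmin of membrane traffic, had 159, 206, 173 and 209 CPM at 0.025 µM, 99.01, 121, 94.2 and 114 at 0.25 µM, 69.7, 56.9, 107 and 77.9 at 2.5 µM and 47.4, 42.9, 70.2 and 61.9 at 25 µM against 143 to 227 (median 183) and 145 to 221 (median 156). From 0.25 µM up it lay below every control, and its log2 fold changes of -0.72, -1.16 and -1.65 (SE 0.20, adjusted p 2.3e-10) were called at these 3 doses. SUSD2 (chr22:24181259-24189110, plus strand), a membrane protein, had 11.4, 13.5, 7.83 and 7.58 CPM at 2.5 µM and 5.49, 5.26, 8.71 and 4.16 at 25 µM against 28.96 to 39.1 (median 38.6) and 16.5 to 24.3 (median 20.1), without overlap (-2.16, SE 0.28, adjusted p 4.3e-09). CLCA2, a regulator of chloride conductance, GGT5, a gamma-glutamyl transferase that cleaves glutathione conjugates, and PDZK1IP1 fell, with log2 fold changes of -1.60, -1.64 and -2.14; the call of PDZK1IP1 was lost within the second set (-1.13) and without the set term (-2.51). TNNI2, a fast troponin I, had 5.75, 6.91, 3.40 and 3.62 CPM against 20.03 to 31.5 (median 23.2) and 12.8 to 40.96 (median 19.7) (-2.32, SE 0.39, adjusted p 7.1e-06). FBXO9, an F-box subunit of a ubiquitin ligase, had 51.02, 54.8, 37.4 and 41.5 CPM at 0.25 µM, 38.1, 36.4, 32.8 and 34.7 at 2.5 µM and 31.1, 26.9, 18.3 and 20.4 at 25 µM against 62.00 to 78.3 (median 67.9) and 38.7 to 61.7 (median 45.4), below all controls at 2.5 and 25 µM. Its slope of -0.46 per 10-fold dose step (adjusted p 3.8e-14) had the smallest p among the falling trends named, and it fell by 1.30 (SE 0.12, adjusted p 2.9e-15).

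**Figure D4:**
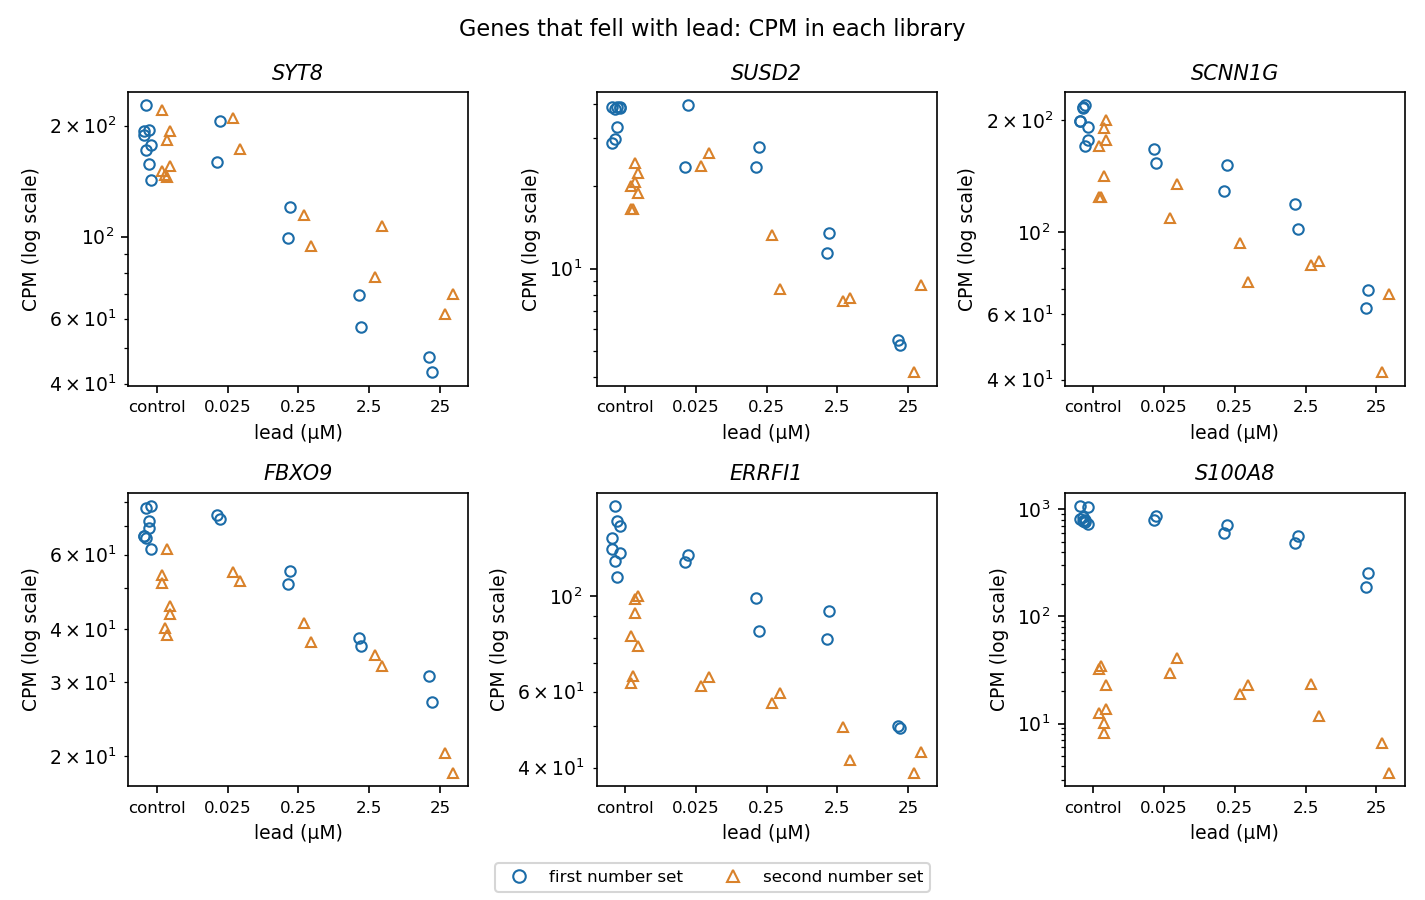
CPM on a log axis in each library for 6 genes that fell with lead, controls at the left and the 4 doses to the right, circles for the first number set and triangles for the second. SYT8, SUSD2, SCNN1G, FBXO9 and ERRFI1 at 25 µM lie below all controls, whereas S100A8 falls within each set from control levels that differ between the sets.

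EPCAM, an epithelial adhesion molecule, had 16.9, 15.6, 28.1 and 18.9 CPM at 25 µM, below the controls of each set, and fell at 3 doses (-0.82, -0.81 and -1.17, SE 0.18, adjusted p 2.0e-06). For EPCAM the controls had 26.96 to 49.3 (median 38.5) and 37.01 to 76.5 (median 47.4) CPM. It is 1 of 3 of 8 luminal markers called lower, with KRT8 (-0.38) and KRT18 (-0.29). The summed level of the luminal markers at 25 µM was 808 to 876 CPM in the first set, below the 1125 to 1232 of its controls, and 866 to 904 in the second, overlapping the 882 to 1226 of its controls. The call of KRT8 was lost without lead replicate 1 (-0.27) or 2 (-0.32). Of 10 basal markers CDH3, P-cadherin, and ITGB4 fell (-0.58 and -0.45; the latter call was lost without lead replicate 1 or 2, at -0.31 each). The summed basal level was 1718 to 1727 CPM in the first set, below its controls (2136 to 2324), and 2905 to 3081 in the second, where 1 of 2 libraries was above its controls (2461 to 2943). SNAI2, the transcription factor Slug, had 71.3, 64.3, 157 and 151 CPM at 0.25 µM, 102, 91.97, 165 and 181 at 2.5 µM and 137, 150.4, 193 and 217 at 25 µM against 41.4 to 55.4 (median 48.3) and 68.7 to 166 (median 117). At 25 µM it lay above the controls of each set, and it rose by 1.21 (SE 0.13, adjusted p 9.8e-12). With FN1, fibronectin (0.54, SE 0.16, adjusted p 0.030), it was 1 of 2 of 14 mesenchymal markers called, and the call of FN1 was lost without lead replicate 1 (0.46), 2 (0.48) or 4 (0.53). The summed mesenchymal level was 1226 to 1283 and 1148 to 1186 CPM in the sets, above the controls of each (1021 to 1163 and 878 to 1072). That of immune and endothelial markers was 58.6 to 59.4 and 21.3 to 33.2, overlapping the controls of each (56.2 to 82.1 and 22.003 to 43.8). The part of these marker shifts in other results was not tested.

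Of 18 TGF-beta and YAP targets 8 rose at 25 µM (2.74% of all genes) and none fell, with a median of 0.36. CCN2, a matricellular YAP target, had 51.6, 45.1, 104 and 107 CPM at 25 µM against 15.1 to 40.2 in controls 1 to 8 and 30.7 to 69.6 in controls 10 to 16. Each of its libraries lay above the controls of its set, and the log2 fold change was 0.93 (SE 0.15, adjusted p 3.2e-06). CCN1, another such target, rose by 0.80, TGFB1 by 0.83, and TGFBI and ID1 by 0.49 and 0.37. TIMP1, an inhibitor of matrix metalloproteinases on none of these lists, had 2094, 2195, 1586 and 1468 CPM at 0.25 µM, 2275, 2543, 1672 and 1937 at 2.5 µM and 3963, 3549, 2349 and 2587 at 25 µM against 1558 to 1783 (median 1639) and 849 to 1139 (median 1023). At 25 µM all 4 libraries were above all controls, with 0.48, 0.68 and 1.23 (SE 0.07, adjusted p 3.8e-28). Among 33 collagens, laminins and integrins 5 rose and 3 fell at 25 µM. ITGA3 and ITGA5 rose by 0.52 and 0.50. LAMB1, a laminin beta chain, had 93.7, 108, 90.2 and 96.7 CPM, below all controls. For LAMB1 the controls had 134 to 173 (median 151) and 113 to 156 (median 137) CPM, and the log2 fold change was -0.56 (SE 0.09, adjusted p 5.6e-06).

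MKI67, a marker of cycling cells, had 198, 195, 211 and 227 CPM at 25 µM, among its controls. For MKI67 the controls had 178 to 213 (median 189) and 199 to 245 (median 222) CPM, and the log2 fold change was 0.02 (SE 0.09, adjusted p 1.0). Of 30 mitotic genes 4 fell at 25 µM (1.71% of all genes), KIF11, KIF20A, CENPF and HMMR, from -0.48 to -0.27. Each of these calls was lost without at least 1 lead replicate (without replicate 4 for each, at -0.45 for KIF11, -0.38 for HMMR, -0.37 for KIF20A and -0.27 for CENPF), that of KIF11 also with the replicate number as a block (-0.48). Of 35 DNA replication genes PCNA (0.35) and RRM2 (0.33) rose and MCM7, a helicase subunit, fell, with 216, 241, 259.6 and 247 CPM at 25 µM, below all controls. For MCM7 the controls had 262 to 297 (median 282) and 297 to 399 (median 348) CPM, and the log2 fold change was -0.38 (SE 0.08, adjusted p 0.00035). The call of PCNA was lost without replicate 1 (0.25), 2 (0.34) or 4 (0.39) and that of RRM2 without any 1 of them (0.31 to 0.35). Against 4.45% of all genes called at 25 µM, 1 of 25 DNA repair genes, ERCC1, was called (0.38; lost without replicate 1, 3 or 4, at 0.32 to 0.41), and of 27 calcium-handling genes 1, CALM3 (0.27; lost without replicate 1, 2 or 4, at 0.25 to 0.28).

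Of 36 glycolysis and hypoxia genes 5 fell at 2.5 µM (0.42% of all genes) and 5 at 25 µM (1.71%), and none rose. LDHA, lactate dehydrogenase A, had 3638, 3786, 3189 and 3007 CPM at 25 µM against 4527 to 5143 (median 4979) and 3742 to 4006 (median 3933), below the controls of each set, and was called at both doses (-0.24 and -0.36, SE 0.06, adjusted p 4.5e-06). GPI, PDK1, P4HA1 and KDM3A fell, with log2 fold changes of -0.22, -0.72, -0.43 and -0.77. At 25 µM each lay below its controls in the first set and overlapped them in the second. CA9, carbonic anhydrase 9, fell at 2.5 µM (-1.86, SE 0.48, adjusted p 0.025) and had -1.11 (adjusted p 0.19) at 25 µM. Of 13 mitochondrially coded mRNAs 3 rose at 25 µM (2.74% of all genes), MT-ND4, MT-ND4L and MT-ATP6, by 0.19, 0.36 and 0.33. The call of MT-ND4 was lost without any 1 lead replicate (0.15 to 0.21). The calls of P4HA1 and KDM3A were lost without replicate 1 (-0.32 and -0.70) or 2 (-0.34 and -0.66) and that of PDK1 without replicate 1 (-0.60). P4HA1 (-0.21) and KDM3A (-0.66) were not called within the second set, nor PDK1 within either set (-0.69 and -0.81). Of 76 ribosomal protein genes 11 rose at 2.5 µM (0.992% of all genes). At 25 µM 2 rose and 1 fell, near the 2.74% and 1.71% of all genes. The medians at these doses were 0.20 and 0.13. Aryl hydrocarbon receptor targets rose in 4 of 8 at 25 µM. CYP1A1 had 7.04, 9.25, 11.7 and 6.32 CPM against 0 to 0.643 (median 0.189) and 1.58 to 9.19 (median 3.17), above the first set's controls and overlapping the second's (3.07, SE 0.56, adjusted p 5.1e-05). CYP1B1 rose by 0.55 (SE 0.10, adjusted p 4.5e-05), beside TIPARP (0.62) and NQO1, which is also an NRF2 target. Within the second set the log2 fold changes of CYP1A1, CYP1B1 and TIPARP were 0.84, 0.29 and 0.25 and were not called, and without the set term CYP1A1 (1.97) and TIPARP (0.59) were not called.

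Sterol synthesis genes were higher in lead than in copper at the same dose. These direct contrasts compare the means of 4 libraries of each metal, without the controls. Their spread and set term come from the fit of all 93 libraries, controls included. They called 252 genes between lead and copper (1.04% of genes tested), 132 higher and 120 lower in lead, and 227 between lead and mercury (0.934%), 127 higher and 100 lower. Without lead replicate 1 these counts were 160 and 115, and without replicates 2 and 4 in turn the count against mercury was 150 and 147. Of the 24 sterol synthesis genes 11 were higher in lead than in copper (0.543% of all genes) and none lower, with a median difference of 0.50, and copper itself lowered 15 against the controls (2.14% of all genes). HMGCS1 differed by 1.37 (SE 0.16, adjusted p 6.0e-10) on the log2 scale, being 0.40 against controls in lead and -0.97 in copper, and FDPS differed by 0.86 (SE 0.09, adjusted p 3.5e-11). The fatty acid genes FASN, SCD and FADS1 were also higher in lead, by 0.67, 0.82 and 0.70. Copper called 1325 genes against the controls (5.45%), with 27 of the 28 NRF2 targets higher (3.32% of all genes). NRF2 targets gave only 1 call of 28 against copper, AKR1C2, which was lower in lead (-0.57, SE 0.16, adjusted p 0.047), with a median difference of 0.05. For NQO1 the difference was -0.07 with SE 0.09, and for TXNRD1 0.00 with SE 0.13, which does not show that the metals act alike. ALAS1 was higher in lead than in copper (0.68, SE 0.15, adjusted p 0.0037) and than in mercury (1.41, SE 0.16, adjusted p 1.4e-10), with 1.33, 0.64 and -0.08 against controls in lead, copper and mercury. ERRFI1 was lower in lead than in either metal (-1.25, SE 0.15, adjusted p 7.0e-10 and -1.06, SE 0.15, adjusted p 4.9e-07), with 0.05 in copper and -0.13 in mercury against controls.

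**Figure D5:**
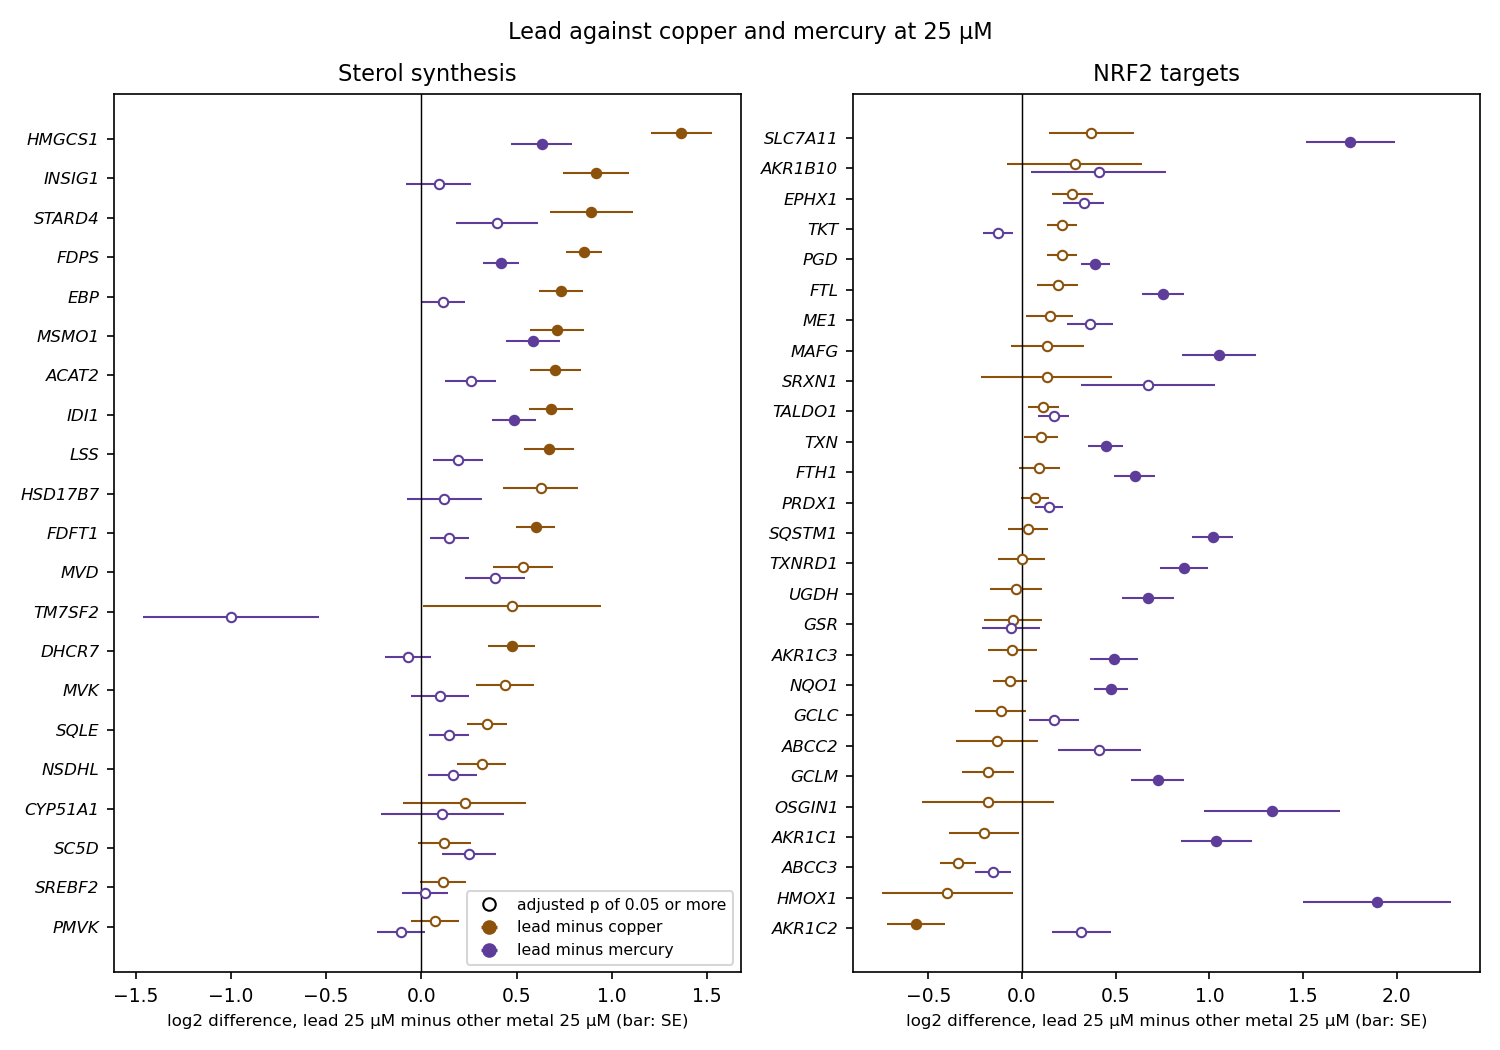
Log2 difference between lead and copper (brown) and between lead and mercury (purple) at 25 µM for 21 of the 24 sterol synthesis genes (left) and 27 of the 28 NRF2 targets (right), with standard errors and filled points for adjusted p under 0.05. All 21 sterol synthesis genes drawn lie to the right of 0 against copper, with 11 filled, and most NRF2 targets do against mercury, with 15 filled.

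Further genes separated lead from copper. DHRS3, a retinal reductase, had 382, 411, 366 and 351 CPM in lead and differed by 4.22 (SE 0.27, adjusted p 5.2e-24), with 0.58 in lead and -3.64 in copper against the controls. Its rise in lead was lost without lead replicate 1 (0.50) or 2 (0.46). SULT1E1, estrogen sulfotransferase, fell in lead (-1.44) and in copper (-3.54), a difference of 2.10 (SE 0.41, adjusted p 0.00035). S100A8 and S100A9 were lower in lead, with log2 differences of -2.53 and -2.04, with 0.54 and 0.42 in copper against controls. Of 10 basal markers 4, the keratins KRT5, KRT14 and KRT17 and the laminin chain LAMA3, were lower in lead than in copper (0.494% of all genes), with log2 differences of -0.85, -1.49, -1.33 and -0.86. KRT16, a keratin of the squamous differentiation list, was also lower (-2.75). None of these 5 was called for lead against the controls. Of 30 immediate early genes 6 and of 33 collagens, laminins and integrins 7 were lower in lead, with medians of -0.33 and -0.14, including EGR1 (-1.09, SE 0.18, adjusted p 2.2e-05) and LAMB3 (-1.22, SE 0.18, adjusted p 1.3e-06). The EGF receptor ligands AREG and EPGN were also lower, with -1.19 (SE 0.14, adjusted p 9.9e-10) and -0.95 (SE 0.19, adjusted p 0.00065). Of 13 mitochondrially coded mRNAs 7 were higher in lead, with a median difference of 0.37.

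Mercury called 34 genes against the controls (0.14%), 29 higher and 5 lower (0.0206%). Compared with mercury, lead was higher in 15 of 28 NRF2 targets (0.523% of all genes) and lower in none, with a median difference of 0.46. Mercury raised 13 of the 28 against the controls (0.119% of all genes). The differences were 1.75 (SE 0.24, adjusted p 2.7e-07) for SLC7A11, 1.02 (SE 0.11, adjusted p 6.0e-11) for SQSTM1 and 1.89 (SE 0.40, adjusted p 0.0020) for HMOX1. GCLC did not pass the test, at 0.17 (SE 0.13, adjusted p 0.70). Inflammatory genes were higher in lead in 8 of 32, among them IL1B (2.36, SE 0.35, adjusted p 2.4e-06), IL1A (1.67) and CXCL8 (1.60). MYL9, a myosin light chain, was higher in lead than in mercury (1.80, SE 0.28, adjusted p 7.2e-06) and than in copper (1.60, SE 0.28, adjusted p 4.4e-05), and rose against the controls by 1.23 (SE 0.20, adjusted p 5.6e-06). TNNI2, TXNIP, a thioredoxin-binding protein that limits glucose uptake, and CLCA2 were lower in lead than in mercury, with -1.67, -1.49 and -1.47. TXNIP had 50.2, 47.8, 39.5 and 28.4 CPM in lead against 97.2 to 149 (median 114) and 40.3 to 116 (median 87.1) in the controls, below those of each set, and fell by 1.23 (SE 0.22, adjusted p 2.1e-05).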

How the data were processed

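Gene counts per library were deposited by the authors as whole-number counts for 34718 gene symbols, of which 92.488% match a name in GENCODE release 29. FastQC, MultiQC, STAR, featureCounts and the build GRCh38 are named per the submitters' processing notes; the sources used here give neither the annotation nor the use of strand, so antisense and overlapping genes cannot be told apart. No 2 lead or control libraries held identical values.

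Counts of the 93 libraries of the plate were fitted in R 4.3.3 with edgeR 4.0.16. These are arsenic, cadmium, copper, lead and mercury at each dose and the 15 water controls. The fit used the quasi-likelihood F-test, TMM scaling and filterByExpr with a minimum count of 10 and minimum total of 15 (24295 genes tested). Its design held a mean for each treatment and dose and a term for the number set, leaving 71 residual degrees of freedom. The sets were dosed replicates 1 and 2 with controls 1 to 8, and replicates 3 and 4 with controls 10 to 16. Filter, scaling and spread therefore draw on all 93 libraries. p-values were adjusted by Benjamini and Hochberg over all genes tested and called under 0.05. A common dispersion, first used, was replaced by a trended one after tests on simulated counts for lead at 25 µM (16823 genes, 200 changed): 40% of its 200 calls were unchanged genes, against 0.9434% of 106 with the trend, which recovered 63% of changes of log2 1 and 42% of changes of log2 0.5. CPM values use the TMM-scaled totals.

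The members, gene lists and tests were chosen with earlier results of these data known. Genes were named by rule: among genes averaging log2 CPM 4 or more, the 12 largest rises and 12 largest falls at 25 µM with all 4 libraries on one side of the mean of their own set's controls, 6 trend genes in each direction, 4 genes at each lower dose and 3 in each direction against copper and mercury; up to 4 called members of each of 33 lists; and 20 genes always named. Results for some genes of the rule and the lists are not reported here. The following were named outside the rule, after their values were seen: ABCC3, AKR1C3, AREG, BAX, BIRC3, BLVRB, CA9, CCL20, CSF3, CXCL3, CXCL5, CXCL8, DHCR7, DUSP4, EGR1, FASN, FDFT1, FDPS, GCLC, GPI, GSR, HSPD1, ID1, IL1A, ITGA3, ITGA5, KRT5, KRT14, KRT16, KRT17, LAMA3, PGD, PHLDA1, PHLDA3, PTGS2, S100A6, S100A16, SAA1, SCD, SLC3A2, STC2, TGFBI, TKT, TRIB3 and TXNRD1.

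Deviations of same-numbered lead libraries from their dose mean were correlated (r 0.390 to 0.509 in 24 of 24 pairs). For deviations from the dose and set mean r was -0.107 to 0.0699, with none above 0.1. With 2 lead libraries per dose and set these deviations mirror each other. Replicates 1 and 2 therefore share each such r, as do replicates 3 and 4, and the pairs are not separate checks. The alternatives were DESeq2 1.42.0, RLE scaling, no low-count filter, thinning of all libraries to 1.93 M counts, each lead replicate left out, a replicate block, no set term, lead and control libraries only, and each set alone. A common dispersion and the removal of the 3 control libraries under 3 M counts were added after seeing the data.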

Additional observations from a re-analysis of the deposited data

Results flagged for a closer look

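In 3 of the 126 named genes 1 of the 4 libraries at 25 µM lead stood apart from the other 3 by Dixon's criterion (the 95% limit for 4 samples), and chance flags about 1 in 20 such groups. Each time it was replicate 1 and the lowest value: 7.61 CPM for TGM1, 130.1 CPM for ME1 and 81.1 CPM for TIPARP.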

How the results depend on the processing

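Given here are the settings that moved a count of called genes by over 1.5 times, with the range over single lead replicates left out. At 0.025 µM, with 0 calls, there were 56 without the low-count filter, 1 with a common dispersion, 140 within the second set and 0 to 1 without 1 replicate. At 0.25 µM (83) there were 200 in DESeq2, 272 without the filter, 9 without the set term, 153 with a common dispersion, 254 with lead and control libraries only, 27 and 179 within the sets, and 25 to 35 without 1 replicate. At 2.5 µM (343) the counts were 569, 84 without the set term, 564 with lead and control libraries only, 145 and 226 within the sets, and 143 to 186. At 25 µM (1081) they were 529 without the set term, 718 and 582 within the sets, and 570 to 870. The trend (312) gave 609 in DESeq2, 84 without the set term, 791 with a common dispersion, 521 with lead and control libraries only, 77 within the second set, and 140 to 219. The set difference (4) gave 28 in DESeq2, 104 without the filter, 1 with RLE scaling, 2 after thinning, 28 with a common dispersion, and 0 to 2. Against copper (252) there were 424 in DESeq2, 105 without the set term, 564 with a common dispersion, and 160 to 214; against mercury (227) 471, 378 without the filter, 38 without the set term, 610 with a common dispersion, and 115 to 235. For the trend 50.2% of calls rose with RLE scaling and 46.1% in DESeq2, against 55.8%; at 25 µM 54.4% rose with a common dispersion and 54.8% after thinning. The cause of these shifts was not tested.

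With the replicate block 0, 62, 293 and 940 genes were called at the 4 doses and 295 for the trend, and 112 of 118 named calls at 25 µM held; the lost calls of HMGCS1, IL33, HSPA6, HSPB8 and KIF11 are given beside them and that of RPL22 was at -0.33. Of the 118, 42 held in the same direction under all 15 alternatives, 68 held without the set term, and 92 and 69 within the sets. IL6 (2.03) and PLK2 (0.038) changed sign within the second set. Over the alternatives the members called at 25 µM numbered 24 to 26 for NRF2 targets higher, 0 to 6 for sterol synthesis higher, 4 to 9 for TGF-beta and YAP targets higher, 0 to 6 for heat shock genes higher, and 2 to 7 each for ATF4 targets and endoplasmic reticulum chaperones higher. Cytokine and acute phase genes numbered 5 to 10 higher and 1 to 8 lower. The ranges were 1 to 11 for glycolysis and hypoxia genes lower, 0 to 7 for mitotic genes lower and 0 to 22 for ribosomal proteins higher. Shallow controls 10 to 16 limit the precision of low genes there.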
